A study of Chlamydomonas reinhardtii with 16 samples.

Results

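Gene expression over the first 3 hr of light was read by RNA sequencing from 4 cultures of the green alga *Chlamydomonas reinhardtii*, strain dw15.1, out of 16 in a diel time course of 8 time points. The members are the 2 cultures collected at ZT3 (Zeitgeber time, hours since dawn) and the 2 collected at ZT0, chosen by their labels and not by any measured value. ZT3 cultures (replicates A and B) had been in the light for 3 hr, and ZT0 cultures (replicates A and B) were collected at the end of the night, before the lights came on. All were untreated 50-mL cultures in Tris-acetate-phosphate medium, which holds acetate as a second carbon source, and had been kept for 48 hr on days of 12 hr of light and nights of 12 hr. Each library came from its own culture, seeded from a shared parent culture, so p-values here measure the spread between cultures of 1 strain in 1 experiment. Pellets of the dark time points, ZT0 among them, were collected in amber tubes under weak green light, so illumination and this handling cannot be told apart in the comparison of ZT3 with ZT0. A bulk library gives the share of RNA that each gene contributes, so a changed level in all cells and a changed share of cells at some stage cannot be told apart either.

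Dawn is the point at which an alga turns from using stored carbon to capturing light. Light-harvesting antenna proteins bind chlorophyll and pass energy to the photosystems, electrons leave photosystem I through ferredoxin and ferredoxin-NADP reductase, and the Calvin cycle uses the products to fix CO2. Carbonic anhydrases interconvert CO2 and bicarbonate. New protein needs ribosomes, aminoacyl-tRNA synthetases, which load amino acids onto tRNA, and chaperones, which fold the product. *C. reinhardtii* swims with a pair of cilia built from tubulin, and in light and dark cycles it tends to grow by day and divide at night.

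Values are FPKM (fragments mapped to a gene, divided by transcript length and by library size) after each library was scaled to a common 75th percentile, referred to below simply as FPKM. The libraries held 1.43e+07 and 1.57e+07 fragments at ZT3 and 1.37e+07 and 1.35e+07 at ZT0. Of 17114 gene models, 16528 were above 0 in at least 1 of the 4 libraries, and the 11544 with a mean of at least 1 FPKM over the 4 were tested. The gene models nearest to this limit were Cre13.g563006 (mean 1.00016 FPKM), just inside, and Cre12.g542000 (0.99993 FPKM), just outside. Replicate cultures correlated at 0.997 across genes on log2(FPKM + 1) at both time points, and a ZT3 library correlated with a ZT0 library at 0.880 to 0.889. Changes are differences in log2(FPKM + 1), ZT3 minus ZT0, and understate the fold change of genes at low levels. They were tested with limma over all 16 libraries, with Benjamini-Hochberg adjusted p under 0.05 as the threshold.

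Most genes tested, 71.4%, differed between ZT3 and ZT0, and most differences were small. At ZT3 3924 genes (34.0% of those tested) were higher than at ZT0 and 4323 (37.4%) were lower. The change was at least 2-fold for 1079 genes that rose (9.35%) and for 717 that fell (6.21%). All of these shares are the background for the same counts in any list below. Among the genes that changed at least 2-fold, 207 rose and 146 fell at least 4-fold, and 28 rose and 36 fell at least 8-fold. The median size of the change over all genes tested was 0.39 on the log2 scale, and the median change itself was -0.04. The 2 libraries of ZT3 lay wholly above or below the 2 of ZT0 for 87.4% of the genes tested, which is the background for the same count in any list below. Of the genes that rose at least 2-fold, 176 had a mean under 1 FPKM at ZT0, and of those that fell, 283 had a mean under 1 FPKM at ZT3. These entered the test only through the time point where they were high. The balance of the directions depends on the scaling: with the FPKM as deposited, 2530 genes rose and 6347 fell, so that 28.5% of the called genes rose in place of 47.6%, and the median change became -0.29.

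**Figure D1:**
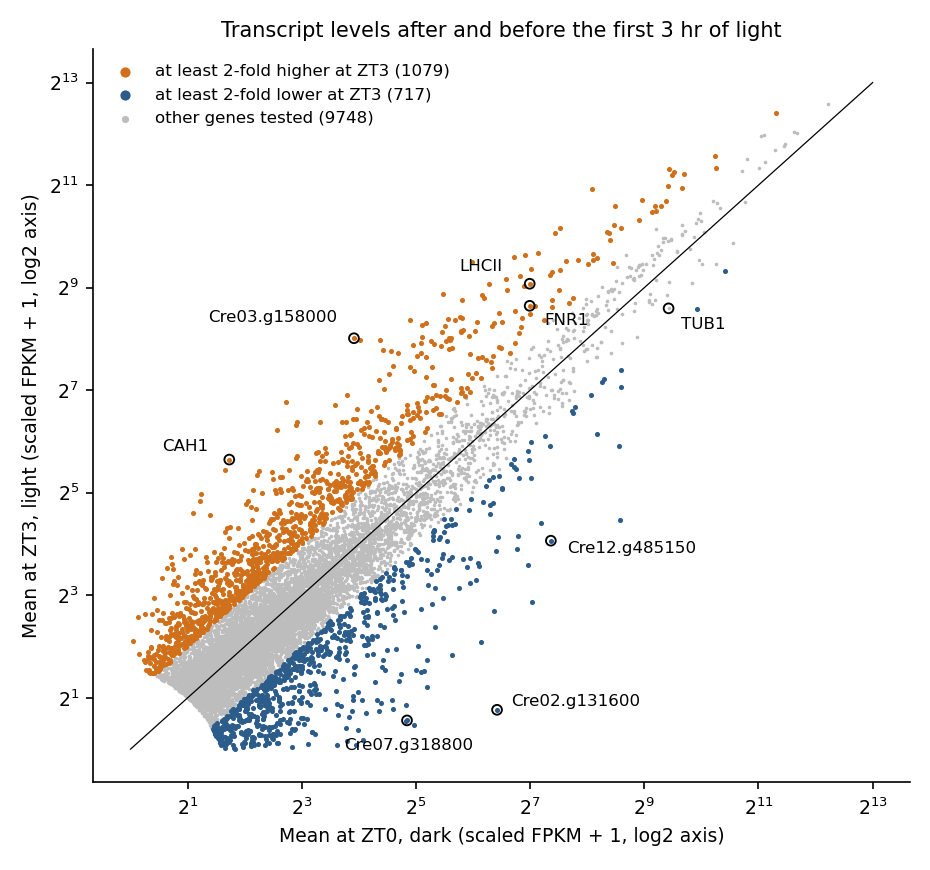
Mean level of each of the 11544 genes tested at ZT3 (vertical axis) against ZT0 (horizontal axis), both as scaled FPKM + 1 on log2 axes, with 2 cultures per mean; the line marks equal levels. Genes called at least 2-fold higher (1079, orange) or lower (717, blue) at ZT3 are coloured, and 8 genes described in the text are ringed.

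Where 34.0% of all genes tested rose and 37.4% fell, the study lists 15 genes with earlier reports of rhythmic expression. Of these 15, 10 rose, 4 fell and 1 did not pass the test. The 4 with the largest increases were CAH1, LHCII, FNR1 and HSP70B. CAH1 (Cre04.g223100, chromosome 4, 1849050 to 1853299 in genome version 4.3), a carbonic anhydrase of the space outside the plasma membrane, had 51.6 and 46.6 FPKM in the ZT3 cultures, against 2.13 and 2.50 FPKM in the ZT0 cultures. This is a 21.2-fold difference in mean FPKM, and a log2 change of 3.92 (SE 0.14, adjusted p = 5.66e-12, limma). The light-harvesting gene listed as LHCII (Cre06.g283950) had 559 and 519 FPKM at ZT3 and 139 and 114 FPKM at ZT0, a log2 change of 2.09 (SE 0.10). FNR1, ferredoxin-NADP reductase, had 396 and 403 FPKM at ZT3 and 124 and 129 FPKM at ZT0, a log2 change of 1.65 (SE 0.09). PRK1, the phosphoribulokinase that regenerates the CO2 acceptor of the Calvin cycle, had 299 and 303 FPKM at ZT3 and 112 and 116 FPKM at ZT0, a log2 change of 1.39 (SE 0.07). In CAH1, LHCII, FNR1 and PRK1 both ZT3 cultures lay above both ZT0 cultures, and the gap was many times the spread within a time point. The 2 groups did not overlap, in either direction, in 87.4% of all genes tested.

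The fructose-bisphosphate aldolases, which split or join sugars in glycolysis and the Calvin cycle, did not move together. FBA3, the most abundant, had 962 and 1027 FPKM at ZT3 and 660.4 and 660.0 FPKM at ZT0 (log2 change 0.59, SE 0.09). FBA2 had 20.7 and 21.8 FPKM at ZT3 and 10.5 and 10.5 FPKM at ZT0, 2.03-fold in mean FPKM but 0.95 on the log2 scale with 1 added, so it fell short of the 2-fold limit. FBA4 rose by 0.52 (SE 0.13, adjusted p = 0.00297, limma), at a low level of 1.60 and 2.44 FPKM at ZT3 and 0.946 and 1.25 FPKM at ZT0, resting on 36 to 85 fragments per library. Without ZT3 replicate B its change was 0.32 and no longer passed the test (adjusted p = 0.0646, limma). FBA1 went the other way, with 18.6 and 21.0 FPKM at ZT3 against 28.7 and 31.2 FPKM at ZT0 (log2 change -0.57, SE 0.12, adjusted p = 0.000611, limma). The groups did not overlap in any of the 4 aldolases, nor in 87.4% of all genes tested.

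**Figure D2:**
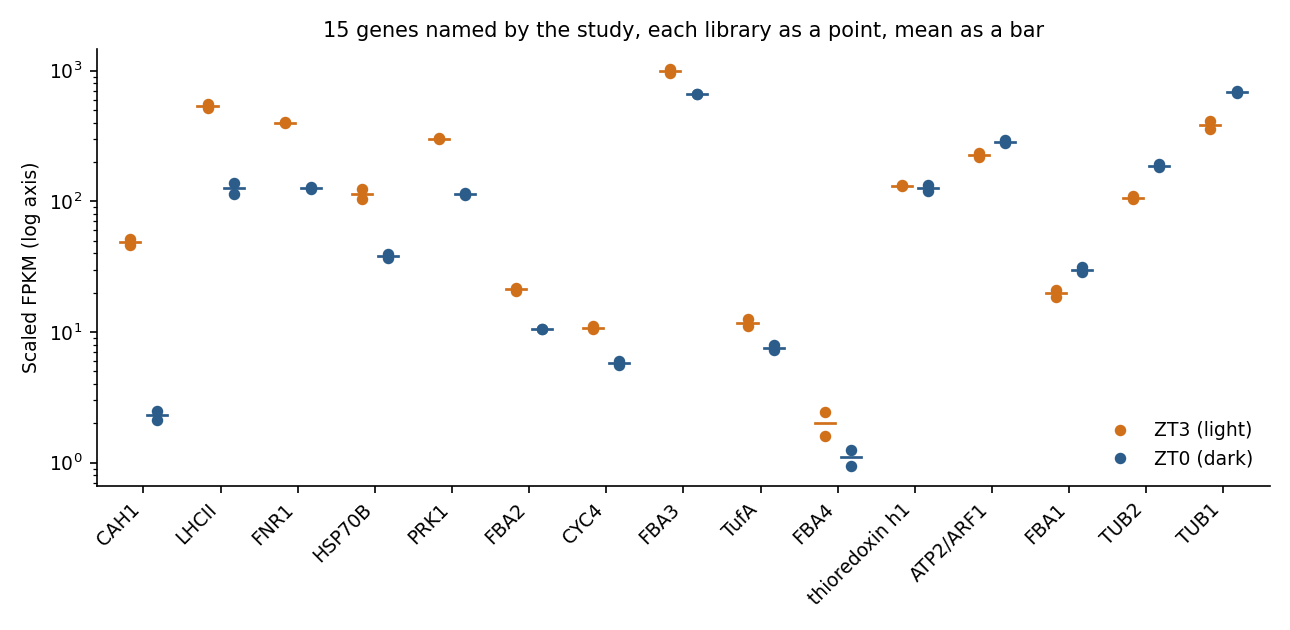
Scaled FPKM (log axis) of the 15 genes listed by the study in the 2 ZT3 cultures (orange, left of each pair) and the 2 ZT0 cultures (blue, right), in order of log2 change; short bars are means. CAH1 stands 21.2-fold higher at ZT3, thioredoxin h1 overlaps between the time points, and the 4 genes on the right are lower at ZT3.

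HSP70B, the Hsp70 chaperone of the chloroplast, had 105 and 124 FPKM at ZT3 and 39.3 and 36.9 FPKM at ZT0, a log2 change of 1.55 (SE 0.12). It averaged 75.7 FPKM at ZT21. TufA, the elongation factor Tu, rose by 0.57 (SE 0.08), with 11.1 and 12.5 FPKM at ZT3 and 7.26 and 7.91 FPKM at ZT0. CYC4, listed by the study as a cytochrome c, had 11.1 and 10.5 FPKM at ZT3 and 5.55 and 5.97 FPKM at ZT0 (log2 change 0.80, SE 0.10). Cytosolic thioredoxin h1 had 133 and 129.9 FPKM at ZT3 and 119 and 132 FPKM at ZT0, values that overlap (log2 change 0.07, SE 0.09, adjusted p = 0.491, limma). The 2 beta-tubulin genes fell: TUB1 had 360 and 413 FPKM at ZT3 against 676 and 697 FPKM at ZT0 (log2 change -0.83, SE 0.10), and TUB2 103 and 109 FPKM at ZT3 against 181 and 192 FPKM at ZT0 (log2 change -0.81, SE 0.09). At ZT21 TUB1 and TUB2 averaged 929 and 388 FPKM, so both were already lower at ZT0. The locus the study lists as ATP2/ARF1 (Cre17.g698000) fell by 0.34 (SE 0.06), with 219 and 235 FPKM at ZT3 against 292 and 280.1 FPKM at ZT0. It is described there as an ADP-ribosylation factor, while the domain trees of the same study place it in the family of ATP synthase alpha and beta subunits.

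Genes of the study's function lists for photosystem I and the thylakoid lumen rose. Both lists were formed from genes that share a time of peak in these same 16 libraries. That their members move together is built in, and neither their direction nor their course over the day is independent evidence. All 9 genes of the photosystem I list rose, 8 of them at least 2-fold, with changes of 0.96 to 2.47. The median was 1.55 on the log2 scale, against -0.04 over all genes tested, of which 34.0% rose and 9.35% rose at least 2-fold. The list includes Cre06.g283950, the gene named LHCII above. It is thus not confined to photosystem I, and that gene is counted in both places. The largest change was in Cre06.g284250, with 71.6 and 101 FPKM at ZT3 and 14.9 and 14.2 FPKM at ZT0. The most abundant at ZT3, Cre17.g720250, had 2403 and 2486 FPKM at ZT3 and 700.0 and 758 FPKM at ZT0, a log2 change of 1.75. All 9 thylakoid lumen genes rose as well, 5 of them at least 2-fold (median 1.20), led by Cre02.g082500, with 734 and 737 FPKM at ZT3 and 183 and 208 FPKM at ZT0. All genes of both lists also rose with the FPKM as deposited, 7 and 3 of them at least 2-fold. The course over the day, relative to each gene's mean of the 8 time points, is fixed by the choice of the lists. The median gene of the photosystem I list stood at 0.66 at ZT0, 1.90 at ZT3 and 2.16 at ZT6. The median lumen gene stood at 0.89, 2.13 and 1.43.

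Families defined by a protein domain were not formed from expression, but which of them to list was chosen with earlier results of these data known. Of 57 lists with 3 or more tested members, leaving out families added later, 5 had a median above 0.5 and 3 below -0.5. The other 49 lay between, and these lists include the study's function lists. All 3 genes with an alpha carbonic anhydrase domain rose at least 2-fold (9.35% over all genes tested), 2 of them also with the FPKM as deposited. Beside CAH1 these were its neighbour Cre04.g223050 (chromosome 4, 1843535 to 1847845), with 10.0 and 11.1 FPKM at ZT3 and 0.663 and 0.445 FPKM at ZT0, and Cre09.g415700, with 45.1 and 52.9 FPKM at ZT3 and 20.8 and 23.2 FPKM at ZT0. The adjacent pair changed 21.2-fold and 19.0-fold in mean FPKM and the third gene 2.23-fold. Of the pair, Cre04.g223050 entered the test only through ZT3. Reads that such similar neighbours share could be assigned to either, and how they were split was not tested. Among 12 tested genes with a 2Fe-2S ferredoxin domain, the fold of the soluble electron carriers, 8 rose and 3 fell (median 0.34). With the FPKM as deposited 5 rose and 3 fell. Over all genes tested 34.0% rose and 37.4% fell. Cre07.g334800 had 126 and 131 FPKM at ZT3 and 20.02 and 21.4 FPKM at ZT0, while Cre12.g487900 had 3.73 and 3.57 FPKM at ZT3 against 11.9 and 12.6 FPKM at ZT0. The most abundant member, Cre14.g626700, had 2942 and 2870 FPKM at ZT3 and 1717 and 1860 FPKM at ZT0.

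**Figure D3:**
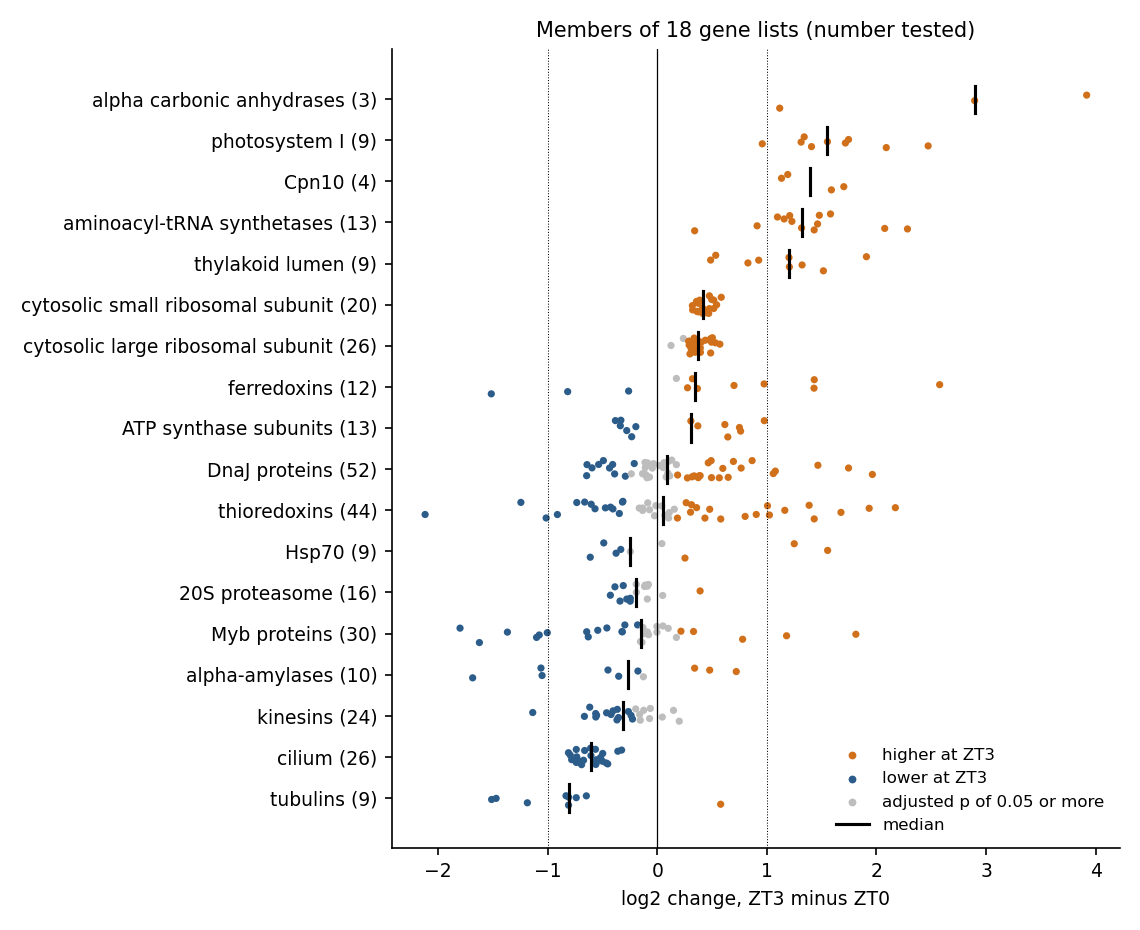
Log2 change, ZT3 minus ZT0, of each tested member of 18 gene lists (number tested in parentheses), orange where higher, blue where lower and grey where the adjusted p was 0.05 or more; black bars are medians and dotted lines mark 2-fold. Medians run from 2.90 for the 3 alpha carbonic anhydrases to -0.81 for the 9 tubulins.

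Over all genes tested 34.0% rose and 9.35% rose at least 2-fold. All 13 genes with either of 2 aminoacyl-tRNA synthetase domains rose, 11 of them at least 2-fold, with a median of 1.32 and a range of 0.34 to 2.28. The list holds only these 2 domain families and does not stand for all synthetases of the alga. Cre03.g160500 had 30.6 and 33.4 FPKM at ZT3 and 5.81 and 5.74 FPKM at ZT0, a 5.54-fold difference (log2 change 2.28, SE 0.10, adjusted p = 4.17e-11, limma). Cre16.g651750 had 8.66 and 8.73 FPKM at ZT3 and 1.21 and 1.40 FPKM at ZT0, and the smallest change, in Cre16.g651650, went with 7.11 and 5.68 FPKM at ZT3 and 4.81 and 4.80 FPKM at ZT0 (adjusted p = 0.0211, limma). The last of these did not pass the test with the FPKM as deposited (log2 change 0.08) or without ZT3 replicate A, ZT0 replicate A or ZT0 replicate B. The ribosomal proteins moved less and more evenly. Of 26 genes of the large cytosolic ribosomal subunit 24 rose and 2 did not pass the test, with changes of 0.13 to 0.57 (median 0.37). All 20 of the small subunit rose, by 0.32 to 0.58 (median 0.41). None reached 2-fold. The study formed both lists on these libraries, so that their direction is not independent evidence. Their rise was small enough to depend on the scaling: with the FPKM as deposited 3 genes of the large subunit rose and 1 fell, 3 of the small subunit rose, and the medians were 0.05 and 0.10, while 12 synthetases rose with a median of 1.03. Fewer passed the test when 1 library was left out, with 12 and 11 genes without ZT3 replicate A, and 10 and 12 without ZT0 replicate A. The medians then stayed at 0.30 and 0.34, and at 0.26 and 0.34. In every gene of both lists both ZT3 cultures lay above both ZT0 cultures. The groups did not overlap, in either direction, in 87.4% of all genes tested.

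Examples from the ribosome are Cre01.g011000 of the large subunit, with 2517 and 2452 FPKM at ZT3 and 1553 and 1799 FPKM at ZT0, and Cre09.g400650 of the small subunit, with 486 and 496 FPKM at ZT3 and 309.7 and 345 FPKM at ZT0. Among 19 genes that carry 1 of 9 ribosomal protein domains, 15 rose and 4 did not pass the test (median 0.32); with the FPKM as deposited 4 rose, without ZT3 replicate A 10, and without ZT0 replicate A 9. One gene stood apart from the rest of them. Cre13.g580850, which carries the domain of ribosomal protein L22, had 325 and 310.2 FPKM at ZT3 and 32.8 and 37.4 FPKM at ZT0 (9.05-fold, log2 change 3.14), while the next largest change in the family was 0.53. The GTPase domain shared by translation initiation and elongation factors gave no common direction. Of 37 genes 17 were higher and 5 lower (median 0.03), against 34.0% and 37.4% over all genes tested. With the FPKM as deposited 11 were higher and 17 lower, with a median of -0.18. Cre18.g750600, which entered the test only through ZT3, had 4.58 and 4.82 FPKM at ZT3 and 0.481 and 0.342 FPKM at ZT0. Cre07.g335200 had 64.1 and 76.3 FPKM at ZT3 against 287 and 288 FPKM at ZT0.

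Chaperone families differed in how they moved, where 34.0% of all genes tested rose and 37.4% fell. All 4 genes with a Cpn10 domain, the small co-chaperonin that caps the chaperonin barrel, rose at least 2-fold (median 1.39); with the FPKM as deposited all 4 rose, 2 of them at least 2-fold. Cre01.g065600 had 66.8 and 65.8 FPKM at ZT3 and 19.2 and 20.1 FPKM at ZT0, and Cre12.g505850 had 74.8 and 74.7 FPKM at ZT3 and 23.5 and 24.8 FPKM at ZT0. Of 14 genes with the barrel domain itself (TCP-1 and Cpn60) 4 rose, 3 of them at least 2-fold, 2 fell and 8 did not pass the test (median -0.04). The decreases depended on the processing: 9 fell with the FPKM as deposited, and 0 with libraries scaled to a common median (median 0.01) or without ZT3 replicate A, ZT0 replicate A or ZT0 replicate B, while 3 or 4 rose in each of these. Cre17.g741450 had 21.2 and 21.7 FPKM at ZT3 and 6.32 and 6.02 FPKM at ZT0. Among 9 Hsp70 genes HSP70B and Cre09.g393200 rose at least 2-fold, 1 more rose, 4 fell and 2 did not pass the test. With the FPKM as deposited 2 Hsp70 genes rose and 6 fell. Of 52 DnaJ genes, partners of Hsp70, 21 rose and 10 fell, with a median of 0.09. With the FPKM as deposited 13 rose and 22 fell, with a median of -0.16. The 20S proteasome, where tagged proteins are cut up, had 7 lower and 1 higher gene of 16 (median -0.19). With the FPKM as deposited 15 were lower, and without ZT0 replicate A 3 were.

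Small heat shock proteins of the HSP20 family, which hold unfolding proteins in solution, gave a sharp contrast within 1 family; it was described after its values were seen. Of 8 genes 5 passed the filter, and 2 of these rose, 2 fell and 1 did not pass the test (median 0.09, and -0.09 with the FPKM as deposited). Cre07.g318800 (chromosome 7, 917045 to 918756) had 0.325 and 0.624 FPKM at ZT3 against 32.6 and 22.7 FPKM at ZT0, from 9 and 19 fragments at ZT3 and 1084 and 732 at ZT0. This is a 58.4-fold difference in mean FPKM, with a log2 change of -4.27 (SE 0.13, adjusted p = 1.15e-12, limma). Its neighbour Cre07.g318850 (chromosome 7, 918847 to 920500) had 0.112 and 0.0342 FPKM at ZT3 against 8.74 and 6.59 FPKM at ZT0, from 3 and 1 fragments at ZT3 and 279 and 204 at ZT0. The 2 neighbours had means under 1 FPKM at ZT3 and entered the test only through ZT0. Both genes were low at every other time point, between 0.23 and 0.68 FPKM for Cre07.g318800 on average. These include ZT15, ZT18 and ZT21, which were also collected in the dark. The other pair of neighbours in the family moved the opposite way. Cre14.g617400 had 11.5 and 11.8 FPKM at ZT3 and 4.53 and 6.32 FPKM at ZT0, and Cre14.g617450 had 12.2 and 13.4 FPKM at ZT3 and 6.74 and 7.32 FPKM at ZT0. Reads shared by such neighbours could be assigned to either.

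Energy and carbon metabolism was mixed. The shares over all genes tested, to be set beside each count, were 34.0% higher and 37.4% lower. Of 13 genes with ATP synthase domains 7 rose and 6 fell, none of them by 2-fold, so that every member passed the test while the median was 0.31. That median was 0.00 with the FPKM as deposited. Cre02.g076350 had 114 and 115 FPKM at ZT3 and 59.2 and 56.5 FPKM at ZT0, and Cre16.g680000 had 47.5 and 50.3 FPKM at ZT3 against 64.2 and 63.8 FPKM at ZT0. Of 10 genes with an alpha-amylase domain, found in enzymes that cut or branch starch, 6 fell, 3 of them at least 2-fold, and 3 rose (median -0.26). With the FPKM as deposited 7 fell and 1 rose. Cre08.g384750 had 3.05 and 2.76 FPKM at ZT3 against 12.2 and 10.9 FPKM at ZT0, whereas Cre08.g385500 had 20.5 and 20.7 FPKM at ZT3 and 12.3 and 11.9 FPKM at ZT0. Mitochondrial carriers rose in 23 of 40 genes and fell in 5 (median 0.27), and with the FPKM as deposited in 14 and 11. ABC transporters rose in 23 of 52 and fell in 12, with 9 higher by at least 2-fold and a median of 0.10. With the FPKM as deposited 17 rose and 23 fell, with a median of -0.15. Their leading member, Cre12.g530900, had 43.6 and 40.0 FPKM at ZT3 and 8.49 and 8.97 FPKM at ZT0.

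Of 44 genes with a thioredoxin domain, the fold of small proteins that reduce disulfide bonds, 18 rose and 14 fell, with a median of 0.06. These counts stand against 34.0% higher and 37.4% lower over all genes tested. The FPKM as deposited gave 13 that rose and 23 that fell, with a median of -0.23. Cre12.g517150 had 71.7 and 80.3 FPKM at ZT3 and 15.4 and 16.8 FPKM at ZT0. Cre12.g554850 fell to 3.62 and 3.60 FPKM at ZT3, against 19.1 and 18.9 FPKM at ZT0 (log2 change -2.12, SE 0.07). Its gene model (chromosome 12, 8452596 to 8454916) starts where that of PRK1 (8448962 to 8452595) ends, and these adjoining genes moved in opposite directions. The library kit marks strand, but the authors' methods name no strand setting for mapping or counting and the default of these programs does not use it, so reads from the 2 strands cannot be told apart where gene models overlap or adjoin.

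Most genes of cilia and the microtubule skeleton were lower after 3 hr of light, where 37.4% of all genes tested fell, 6.21% at least 2-fold. All 26 genes of the study's cilium list fell, by 0.32 to 0.81 on the log2 scale (median -0.61), and none by 2-fold. Among them 9 fell at least 2-fold with the FPKM as deposited. The list was formed from genes that share a time of peak in these same 16 libraries and is not independent evidence of its direction. Cre12.g536550 had 35.9 and 41.2 FPKM at ZT3 against 70.7 and 65.7 FPKM at ZT0. In the tubulin family, defined by its domain, 8 of 9 tested genes fell, 3 of them at least 2-fold (median -0.81). With the FPKM as deposited 7 fell at least 2-fold. Of the 5 that averaged 5 FPKM or more, 5 fell, 1 of them at least 2-fold. The largest decrease was in Cre02.g118600, with 0.239 and 0.141 FPKM at ZT3 against 2.41 and 2.37 FPKM at ZT0. It rests on 17 and 11 fragments at ZT3, and this gene entered the test only through ZT0. The abundant members Cre03.g190950 (660.5 and 740 FPKM at ZT3, 1209 and 1241 FPKM at ZT0) and Cre04.g216850 (523 and 564 FPKM at ZT3, 879 and 936 FPKM at ZT0) changed by about as much as TUB1 and TUB2, at -0.81 and -0.74. Cre12.g513450 was the exception, with 5.60 and 5.27 FPKM at ZT3 and 3.08 and 3.55 FPKM at ZT0. Of 38 kinesins, motors that walk on microtubules, 24 were tested. Of these 15 fell and 9 did not pass the test (median -0.31), against 37.4% lower over all genes tested. With the FPKM as deposited 22 kinesins fell. Cre03.g202000 had 2.08 and 2.10 FPKM at ZT3 against 5.87 and 5.70 FPKM at ZT0.

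Of the genes of the division cycle, 16 of 17 cyclins passed the filter, but 7 of 129 core histone genes and 0 of 4 B-family DNA polymerases. Mapping kept 1 hit per read, and how reads shared by similar histone genes were assigned was not tested. A gene outside the filter is thus not shown to be silent. Among the cyclins 4 rose, 5 fell and 7 did not pass the test, against 34.0% higher and 37.4% lower over all genes tested; with the FPKM as deposited 2 rose and 11 fell. Cre03.g207900 fell to 0.232 and 0.401 FPKM at ZT3, against 6.89 and 5.87 FPKM at ZT0, a 20.2-fold difference that rests on low values at ZT3. It entered the test only through ZT0. Its mean was 81.4 FPKM at ZT12 and 20.8 FPKM at ZT21, so it was already lower at ZT0. The pair of ribonucleotide reductase small subunits, which make the building blocks of DNA, split. Cre12.g491050 had 0.641 and 0.353 FPKM at ZT3 against 6.03 and 5.87 FPKM at ZT0, and Cre12.g509400 had 10.0 and 9.99 FPKM at ZT3 and 5.45 and 5.69 FPKM at ZT0. At ZT12 they averaged 102 and 17.3 FPKM, and at ZT21 19.4 and 11.8 FPKM, so both were already lower at ZT0 than at ZT21. Cre12.g491050 had a mean under 1 FPKM at ZT3 and entered the test only through ZT0. Among regulators, 14 of 30 Myb-domain genes, whose domain binds DNA, fell and 5 rose (median -0.15, and 0.05 for the 8 that averaged 5 FPKM or more), and with the FPKM as deposited 22 fell and 3 rose. Cre01.g063750 had 11.0 and 11.2 FPKM at ZT3 against 38.7 and 43.6 FPKM at ZT0, and Cre01.g003350 had 5.09 and 5.31 FPKM at ZT3 and 0.850 and 0.682 FPKM at ZT0. The latter entered the test only through ZT3. Of 72 tested genes with the domain of guanylate and adenylate cyclases, which make cyclic nucleotide signals, 27 fell and 16 rose (median -0.08), a share lower that is close to the 37.4% over all genes tested. The FPKM as deposited gave 48 that fell and 8 that rose. In the main fit Cre02.g103200 alone fell at least 2-fold, with 0.155 and 0.181 FPKM at ZT3 against 3.25 and 2.91 FPKM at ZT0. It entered the test only through ZT0.

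Of the 6 genes with the largest increases, which include CAH1, 5 had their highest mean at ZT3 and 1 at ZT6. Cre03.g158000 (chromosome 3, 1302586 to 1306013), with the domain of class III aminotransferases, enzymes that move amino groups, had 249.9 and 265 FPKM at ZT3 and 13.5 and 14.6 FPKM at ZT0 (log2 change 4.10, SE 0.16, adjusted p = 8.56e-12, limma). Cre16.g674300, with ankyrin repeats, had 112 and 105 FPKM at ZT3 and 4.82 and 6.32 FPKM at ZT0, and Cre02.g085450, with no annotation here, 259 and 244 FPKM at ZT3 and 13.9 and 16.4 FPKM at ZT0. These 3 genes shared a course over the day: Cre03.g158000 averaged 14.1 FPKM at ZT0, 257 at ZT3, 21.6 at ZT6, 1.07 at ZT9, 15.5 at ZT15 and 82.4 at ZT21. Cre16.g674300 and Cre02.g085450 averaged 6.38 and 17.4 FPKM at ZT15 and 27.2 and 78.5 FPKM at ZT21. All 3 were thus higher at ZT21 than at ZT15, lower in both ZT0 cultures, and highest at ZT3. Cre05.g240850 had 43.4 and 41.4 FPKM at ZT3 and 2.04 and 2.22 FPKM at ZT0, and Cre15.g634850 had 32.9 and 28.3 FPKM at ZT3 and 1.47 and 1.23 FPKM at ZT0. Cre05.g240850 averaged 12.8 FPKM at ZT6, 29.6 FPKM at ZT12 and 12.6 FPKM at ZT21. Cre15.g634850 kept climbing, to a mean of 78.7 FPKM at ZT6, and averaged 0.10, 0.09 and 0.10 FPKM at ZT15, ZT18 and ZT21.

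Further annotated genes with large increases were Cre01.g013100, of the cysteine-rich secretory (CAP) family, with 44.7 and 38.8 FPKM at ZT3 and 3.55 and 3.91 FPKM at ZT0, and Cre05.g242000, with a von Willebrand factor A domain, with 116 and 121 FPKM at ZT3 and 12.2 and 13.5 FPKM at ZT0. A cyclophilin, of the enzymes that turn proline bonds during folding, was Cre03.g174750, with 12.3 and 12.4 FPKM at ZT3 and 0.608 and 0.642 FPKM at ZT0. Cre03.g177200, with an RNA recognition motif, had 30.9 and 33.3 FPKM at ZT3 and 3.19 and 3.63 FPKM at ZT0. In each of these the ZT3 cultures were at least 9.23-fold above the ZT0 cultures in mean FPKM. Their means at ZT21, in the dark, were 29.2, 34.2, 2.52 and 23.9 FPKM in the order given, each above the mean at ZT0. Cre03.g174750 had a mean under 1 FPKM at ZT0 and entered the test only through ZT3.

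**Figure D4:**
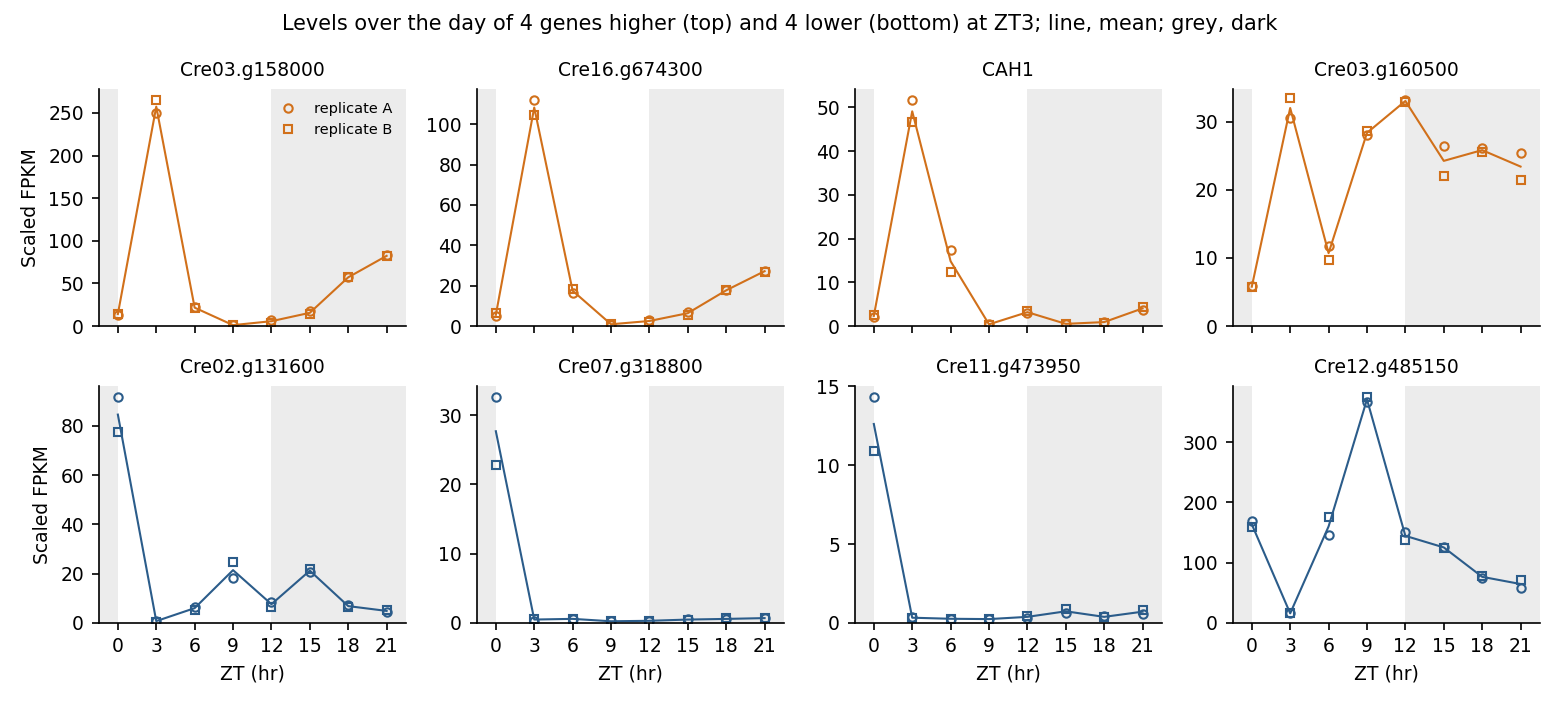
Scaled FPKM over the 8 time points, in hours after dawn (ZT), for 4 genes higher at ZT3 (top) and 4 lower at ZT3 (bottom); circles and squares are replicates A and B, lines join means and grey marks darkness. Cre07.g318800 and Cre11.g473950 were high at ZT0 and low at the other 7 time points, while Cre12.g485150 was as high at ZT6 as at ZT0.

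All 6 genes with the largest decreases had their highest mean at ZT0. Cre02.g131600 (chromosome 2, 7467550 to 7468730), with no annotation here, had 0.946 and 0.456 FPKM at ZT3 against 91.8 and 77.5 FPKM at ZT0 (120.7-fold in mean FPKM, log2 change -5.66, SE 0.16, adjusted p = 6.68e-13, limma). The ZT3 values rest on 17 and 9 fragments and those of ZT0 on 1974 and 1615, and this gene entered the test only through ZT0. Cre13.g568500 had 0.462 and 0.322 FPKM at ZT3 against 32.7 and 27.9 FPKM at ZT0, and Cre11.g473950, with a 4Fe-4S ferredoxin domain, 0.373 and 0.278 FPKM at ZT3 against 14.3 and 10.9 FPKM at ZT0. Both were lower at every other time point than at ZT0, with means of at most 4.01 FPKM in Cre13.g568500 and 0.73 FPKM in Cre11.g473950. Both entered the test only through ZT0. Cre12.g518800, with a von Willebrand factor A domain, had 2.21 and 2.44 FPKM at ZT3 against 37.9 and 33.2 FPKM at ZT0. Cre01.g066800, of the alpha-2-macroglobulin family of protease inhibitors, had 1.07 and 1.28 FPKM at ZT3 against 15.5 and 14.3 FPKM at ZT0.

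Other genes that fell at ZT3 were higher again at ZT6, to different extents. Cre12.g485150, with the domain of glyceraldehyde-3-phosphate dehydrogenase, an enzyme of glycolysis and the Calvin cycle, had 15.6 and 15.9 FPKM at ZT3 against 169 and 158 FPKM at ZT0 (log2 change -3.30, SE 0.10), and averaged 160.1 FPKM at ZT6 and 371 FPKM at ZT9. Cre10.g452350 had 23.1 and 19.3 FPKM at ZT3 against 383 and 381 FPKM at ZT0, with means of 297 FPKM at ZT6 and 380 FPKM at ZT9. Cre09.g388800, of the family of glutamate and related amino acid dehydrogenases, had 0.239 and 0.228 FPKM at ZT3 against 8.87 and 7.995 FPKM at ZT0, and averaged 5.51 FPKM at ZT6. Cre02.g107200 had 6.45 and 6.11 FPKM at ZT3 and 129.4 and 129.5 FPKM at ZT0, with 45.1 FPKM at ZT6, and Cre01.g034822 had 0.439 and 0.480 FPKM at ZT3 and 28.5 and 25.9 FPKM at ZT0, with 4.75 FPKM at ZT6 and 26.2 FPKM at ZT12. Cre09.g410050, a P-type ATPase that belongs to a family of ion pumps, had 0.711 and 0.866 FPKM at ZT3 against 12.6 and 11.3 FPKM at ZT0, with 5.25 FPKM at ZT6. The ZT6 mean thus was close to that of ZT0 in Cre12.g485150, and below it in the other 5. For all of these the ZT3 mean was the lowest of the 8 time points. Cre09.g388800, Cre01.g034822 and Cre09.g410050 averaged under 1 FPKM at ZT3 and entered the test only through ZT0.

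Both sets of genes were chosen on their levels at ZT0 and ZT3, so their values there are a description. Relative to each gene's own mean of the 8 time points, the median of the 1079 genes that rose at least 2-fold was 0.51 at ZT0, 1.79 at ZT3 and 0.92 at ZT6, and stood at 1.02 at ZT21. ZT3 was the highest time point for 649 of them and ZT6 for 153, and ZT0 the lowest for 421, against 16.9% of all genes tested highest at ZT3, 16.4% highest at ZT6 and 11.4% lowest at ZT0. For 562 the mean at ZT6 was no more than 0.5 of that at ZT3. For 491 (45.5%) the mean at ZT21 was at least 2 times that at ZT0, against 8.82% of all genes tested. The median of the 717 genes that fell was 1.59 at ZT0, 0.38 at ZT3, 0.77 at ZT6 and 0.76 at ZT21. ZT0 was the highest time point for 307 of them and ZT3 the lowest for 336, against 14.3% and 11.3% of all genes tested. For 348 (48.5%) the mean at ZT21 was no more than 0.5 of that at ZT0, against 9.07% of all genes tested. The ZT0 libraries entered both the choice of the 2 sets and these comparisons with ZT21. What share of the change between ZT0 and ZT3 followed from light was not tested. The listed aminoacyl-tRNA synthetases had a median relative level of 0.57 at ZT0, 1.56 at ZT3 and 0.91 at ZT6, against 0.95 at ZT21.

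**Figure D5:**
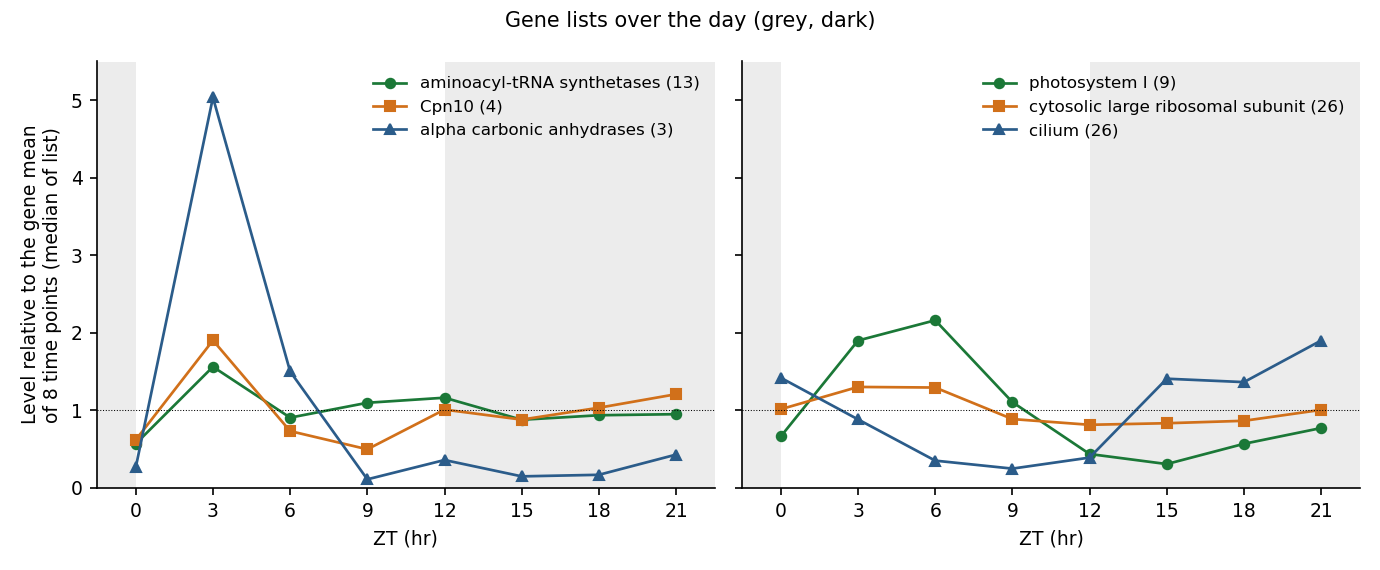
Median level of 6 gene lists over the 8 time points, in hours after dawn (ZT), each gene divided by its own mean of the 8 (vertical axis, no unit), with the number of genes in parentheses and darkness in grey. Synthetases, Cpn10 and carbonic anhydrases were highest at ZT3, photosystem I at ZT6, and the cilium list at ZT21.

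The first 3 hr of darkness, ZT15 against ZT12, gave the opposite change of light. These libraries lay outside the means of ZT3 and ZT0, but all 16 shared 1 fit and its estimate of the spread. The study's function lists are less separate still, since the peak times that formed them came from all 16 libraries, ZT12 and ZT15 included. Over all genes tested, 3.98% fell and 7.48% rose at least 2-fold at ZT15. Of the 1079 genes that rose at least 2-fold after dawn, 92 (8.53%) fell and 39 (3.61%) rose at least 2-fold after dusk. Of the 717 that fell after dawn, 110 (15.3%) rose and 24 (3.35%) fell after dusk. Most of both sets thus did not change 2-fold in the first hours of darkness, and their median changes were -0.04 and 0.10 on the log2 scale. All 26 genes of the cilium list, lower after dawn, rose after dusk, 22 of them at least 2-fold, with a median of 1.66, a common course that its choice by time of peak builds in. Over all genes tested 36.2% rose and 29.0% fell at ZT15, 2-fold or not. The listed synthetases, defined by their domains, fell in 10 of 13 cases after dusk (median -0.48). Genes of the photosystem I list, chosen by time of peak, fell in 7 of 9 cases (median -0.51). The medians of the large and small ribosomal subunits were 0.03 and 0.01.

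Single genes followed the same variety. CAH1 fell by 1.47 on the log2 scale between ZT12 and ZT15 (adjusted p = 3.2e-07, limma), and Cre15.g634850 fell by 2.03. Cre03.g158000, Cre16.g674300 and Cre02.g085450, which rose most after dawn, rose after dusk too, by 1.34, 1.09 and 1.60. Cre01.g063750, the Myb-domain gene that fell after dawn, rose by 3.65 after dusk. Cre07.g318800, the small heat shock gene that stood high at ZT0, changed by 0.18 (adjusted p = 0.23, limma).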

How the data were processed

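The authors mapped reads from 16 libraries, 2 independent cultures at each of 8 time points, to genome version 4.3 with TopHat (1 hit per read) and used Cufflinks to calculate FPKM for each gene model. Program versions are not given in the sources used here. The deposited FPKM are not scaled between libraries. Here each library was scaled to the 75th percentile of replicate B at ZT6 over 17114 gene models (factors 0.930 and 0.937 at ZT3, 0.745 and 0.756 at ZT0). Fragments per gene were recovered from the deposited Cufflinks limits, within 0.05 of a whole number for 100% of values under 300 fragments, and cover counting error only. log2(FPKM + 1) was fitted with limma 3.58.1 in R 4.3.3, with an intensity trend, on 8 time points over all 16 libraries, and p-values were adjusted by Benjamini-Hochberg over 11544 genes. The script was tested on simulated data. Other steps used Python 3.11.15 and pandas 2.3.3. The paper's methods put the replicates of each time point into different lanes.

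Named genes are the 15 of the study, the 6 largest changes each way, the 8 each way that carry an annotation, and the extremes of each list described, where the 2 libraries of one time point lie wholly above the other 2; 11 further list members were named after their values were seen. Lists were 63 function lists and domain families of the study, with 8 families added after values were seen; members and lists were chosen with earlier results of these data known. The reference pairs no symbols with loci, so lists by symbol were not formed, and 12646 gene models matched it by locus number. Alternatives were other scalings, pseudocount 0.1, other filters, a replicate block, voom on recovered fragments, 4 libraries only and leaving out each library.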

Additional observations from a re-analysis of the deposited data

How the results depend on the processing

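The count of genes lower by at least 2-fold at ZT3 was 717 as reported, 1277 with FPKM as deposited, 1122 with a pseudocount of 0.1, 1179 with voom on recovered fragments, and 320 with a filter at 5 FPKM, which tests fewer genes. Genes higher at ZT3 were 2530 with FPKM as deposited and 2007 with a filter at 5 FPKM, which left 1725 lower, against 3924 and 4323. Counts of genes higher by at least 2-fold stayed within 1.5 times of 1079. Leaving out 1 of the 4 libraries gave 3476 to 3571 higher, 3828 to 3943 lower, 1061 to 1104 at least 2-fold higher and 716 to 742 at least 2-fold lower. Of the genes that rose at least 2-fold after dawn, those lower at ZT15 were 59 with FPKM as deposited, 162 with a pseudocount of 0.1 and 180 with voom, against 92, and of those that fell, those higher at ZT15 were 283, 247 and 279, and 66 with a filter at 5 FPKM, against 110; these alternatives were chosen after seeing the data. The cause of these shifts was not tested. Thioredoxin h1 changed sign with FPKM as deposited (-0.24, adjusted p = 0.0146, limma) and ranged from -0.0051 to 0.1444 when 1 library was left out. Medians of 6 of the 29 lists described changed sign with FPKM as deposited. Replicate letters were not treated as pairs: differences between A and B correlated at -0.12 between ZT0 and ZT3. Over all 28 pairs of time points this ran from -0.27 to 0.37, and 8 pairs exceeded 0.1. Whether the letters mark a shared lane was not tested. A replicate block gave 3919 higher and 4333 lower and changed no call of the 93 named genes. Crossing the letters, added after seeing the data, gave 3927 and 4353. Genes with a mean under 1 FPKM at 1 time point rest on few fragments: in 23 of the 717 genes that fell, a library held 3 fragments or fewer.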

Other observations

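The 3 families described here were chosen after their values were seen, so their counts are a description. Over all genes tested 34.0% rose, 9.35% at least 2-fold, and 37.4% fell. Of 7 genes with a class I glutamine amidotransferase domain, found in enzymes that take nitrogen from glutamine, 5 rose, 4 of them at least 2-fold, and 1 fell (median 1.19 on the log2 scale). Cre06.g308500 had 75.7 and 77.8 FPKM at ZT3 and 16.9 and 17.3 FPKM at ZT0, and Cre07.g346650 had 10.2 and 9.84 FPKM at ZT3 against 12.0 and 10.9 FPKM at ZT0. The decrease of Cre07.g346650 (log2 change -0.18, adjusted p = 0.0464, limma) did not pass the test with libraries scaled to a common median, with a pseudocount of 0.1, or without ZT3 replicate A, ZT3 replicate B or ZT0 replicate A. Of 16 tested class I and II aminotransferases 12 rose, 7 of them at least 2-fold, and 2 fell (median 0.63). Cre06.g257950 had 26.2 and 24.4 FPKM at ZT3 and 3.01 and 3.58 FPKM at ZT0, and Cre02.g122250 had 36.2 and 41.9 FPKM at ZT3 against 88.6 and 84.4 FPKM at ZT0. Of 3 tested beta-ketoacyl synthases, which lengthen fatty acids, 2 rose at least 2-fold and 1 fell (changes of -0.41 to 1.73 on the log2 scale).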
